A study of Mus musculus with 6 samples.

Results

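Kallikreins, serpins, Kazal-type inhibitors, cystatins and WAP-domain inhibitors were followed as one set of proteases and their inhibitors. Members were all genes with a name starting with Klk, Serpin or Spink, and Cst3, Cst6, Csta1, Stfa1, Stfa2, Stfa3, Slpi, Wfdc5 and Wfdc12. Klkb1 and names of pseudogene or opposite-strand form were left out, so that 128 matching rows gave 111 members of the 54532 genes counted. The members are 13 tissue kallikreins, 13 Klk1b kallikreins, 13 Kazal inhibitors, 25 clade A serpins, 27 clade B serpins, 11 serpins of clades C to I, 6 cystatins and stefins, and 3 WAP inhibitors.

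Read counts came from 6 Smart-seq2 libraries, a full-length cDNA method for little RNA, each made from 500 sorted DAPI-negative events. The cells were dissociated from the dorsal epidermis of C57BL/6 mice that were 4 weeks old. In the NCAM-enriched group, 3 libraries were made of cells selected with an antibody to the polysialylated form of NCAM, the surface protein that marks Merkel cells, the touch-sensing neuroendocrine cells of the epidermis. The bulk skin group had 3 libraries of DAPI-negative cells without that selection, which can include Merkel cells. No genotype or drug separated the groups, and mice of both sexes were used, with no statement in the sources used here of which mice went into a library.

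The outermost epidermis is shed by proteolysis. KLK5 and KLK7 are secreted serine proteases that cut the corneodesmosomes holding the cornified cells together, and LEKTI, the product of Spink5, holds them back. Serpins are suicide inhibitors that trap a protease in a covalent complex, those of clade B acting mainly inside cells and those of the other clades mainly outside. Cystatins and stefins block cysteine cathepsins, and SLPI and the other WAP proteins block elastase-like serine proteases.

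The libraries held 1343190 to 4481830 counts, so that 1 count stood for 0.216 to 0.773 CPM, the counts scaled to a common library size with TMM factors. NCAM-enriched library 2 held the fewest counts. It had 11565 genes of at least 5 counts, against 13501 to 15638 in the other libraries. The 9 Merkel cell markers summed to 1529, 1602 and 451 CPM in NCAM-enriched libraries 1, 2 and 3 and to between 132 and 176 CPM in bulk skin, and 5 of the 9 passed the test as higher. The NCAM-enriched libraries were also high in other cell types. The 9 suprabasal keratinocyte markers summed to 14072 to 36392 CPM against 1470 to 1654 CPM, with 7 of the 9 higher. The 5 fibroblast markers summed to 361, 32932 and 41.4 CPM in NCAM-enriched libraries 1, 2 and 3 and to 10319 to 18167 CPM in bulk skin, so that library 2 stood apart. The 7 hair follicle markers summed to 6287 to 28802 CPM against 2205 to 2854 CPM, mainly from Krt17 and Krt79. They did not share a direction, with 1 called higher (Krt17), 1 called lower (Lgr6) and a median log2 fold change of -0.50. Basal keratinocyte markers, at 7129 to 30792 CPM against 11854 to 16282 CPM, overlapped. T and NK cell markers summed to at most 13.1 CPM in NCAM-enriched libraries and to at least 2722 CPM in bulk skin. In such libraries a smaller number of cells of a type and less RNA per cell cannot be told apart.

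The set took between 0.372% and 1.34% of the counts of a library. Of the 111 members, 45 had no count in any library and 29 had counts but were too low for the test. The remaining 37 were tested together with all other genes, 13157 in all, by edgeR's quasi-likelihood test. The test called 2 members higher in the NCAM-enriched libraries, Spink5 and Klk7, which is 5.41% of those tested against 1.04% of all genes. It called 0 lower, against 1.55% of all genes. At an unadjusted p under 0.05 there were 7 higher members (18.9%, against 8.73% of all genes) and 4 lower ones (10.8%, against 10.2%). In a DESeq2 fit, 7 members were called higher (18.9%, against 5.02% of all genes) and 3 lower (8.11%, against 7.05%), and limma-voom called 3 higher (8.11%, against 2.67%) and 5 lower (13.5%, against 6.45%). Called higher by DESeq2 were Spink5, Klk7, Klk5, Serpina3j, Serpina3n, Serpinb3b and Csta1, and called lower were Cst3, Serpina3c and Serpinb6a. By limma-voom, Spink5, Klk7 and Serpina3j were higher, and Slpi, Serping1, Cst3, Serpina3c and Stfa1 were lower.

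All NCAM-enriched libraries lay above all bulk skin libraries for 6 of the 37 tested members (16.2%, against 11.1% of all genes tested), and below them for 10 (27%, against 19.3%). The median log2 fold change over the tested members was -0.11, against -0.07 over all genes. It was 1.29 for the 6 tested tissue kallikreins, 0.15 for the 7 clade A serpins, -0.71 for the 11 clade B serpins, -1.93 for the 5 serpins of clades C to I and -0.94 for the 5 cystatins and stefins. Of these classes, edgeR called a member in the kallikreins alone.

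**Figure D1:**
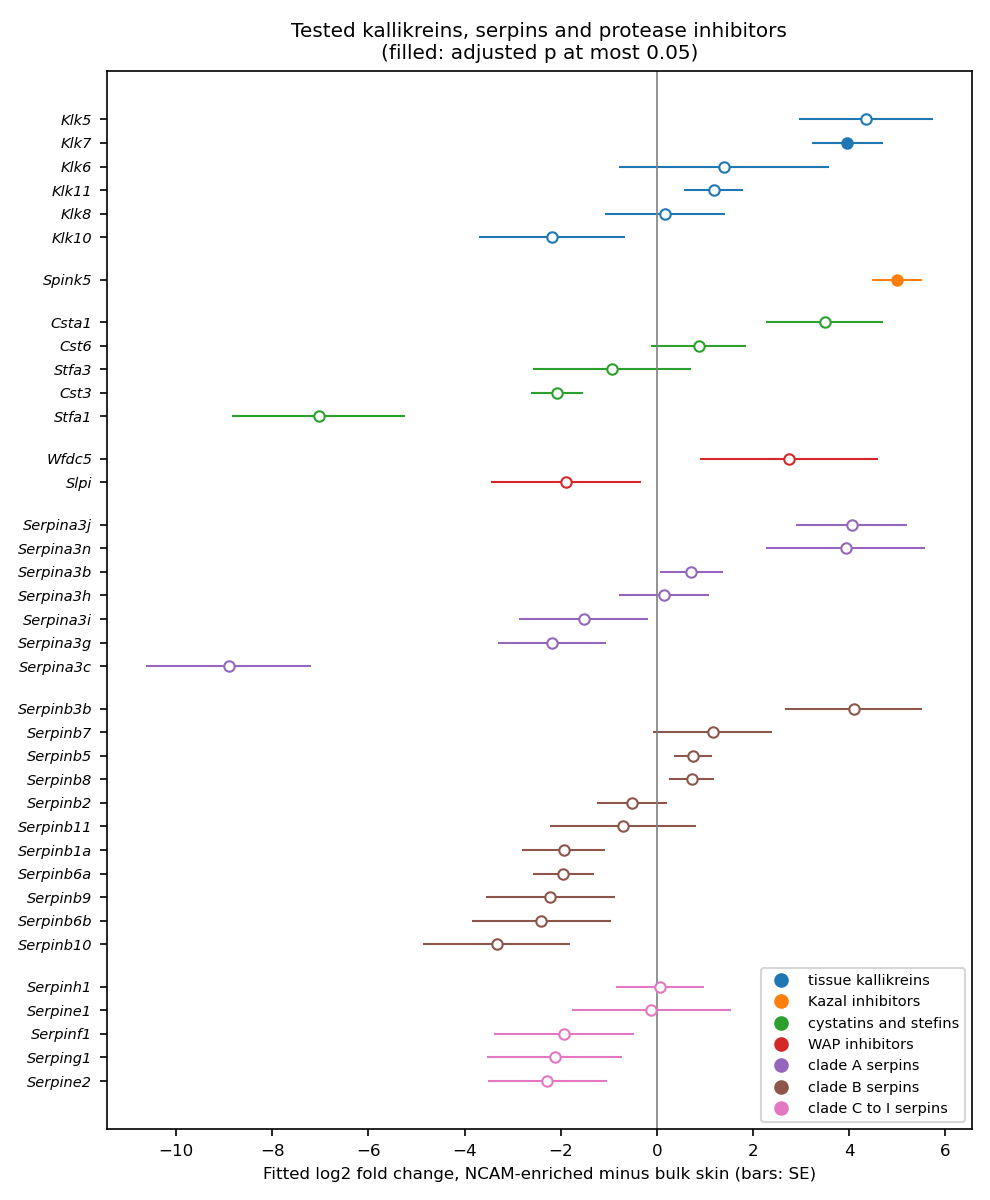
Fitted log2 fold change (NCAM-enriched minus bulk skin, x axis) of each of the 37 tested members, grouped by class, with the standard error as a bar and filled points for an adjusted p of at most 0.05. Spink5 at 5.0 and Klk7 at 3.96 are the filled points. The points of Serpina3c and Stfa1, which had no count in the NCAM-enriched libraries, depend on the prior count of the fit.

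Spink5 encodes LEKTI, the Kazal-type inhibitor of the epidermal kallikreins, which is lost in Netherton syndrome. The gene lies on chromosome 18 from 43963235 to 44022501 on the plus strand (GRCm38), shares no 50-base stretch with another gene and had 3886, 1415 and 4763 counts in the NCAM-enriched libraries and 89, 248 and 217 in bulk skin. These are 2065, 1093 and 1352 CPM against 27.6, 53.6 and 59.5 CPM. The groups were far apart, and the lowest NCAM-enriched library was above the highest bulk skin library. The means were 1503 ± 503 and 46.9 ± 17.0 CPM (SD, n = 3). The log2 fold change was 5.0 ± 0.52 (SE; edgeR adjusted p = 0.004941).

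Spink5 was called in 13 of 16 alternative fits, and was not called when any 1 of the bulk skin libraries was left out (highest adjusted p = 0.0609), where the log2 fold change was 4.68 or more. The other Kazal inhibitors were close to absent. Of the 13 genes, 9 had no count, and Spink2, Spink8 and Spink10 had at most 5.59 CPM in any library. The Kazal class, which is mainly Spink5, summed to 1093 to 2065 CPM against 39.4 to 65.0 CPM, and bulk skin library 1 had the largest part from the other genes, with 27.6 of its 39.4 CPM from Spink5.

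Klk7, the chymotrypsin-like kallikrein of the cornified layer, was the second member called. It had 2678, 240 and 3750 counts in NCAM-enriched libraries 1, 2 and 3 and 122, 315 and 238 in bulk skin, or 1423, 185 and 1064 CPM against 37.9, 68.1 and 65.3 CPM. The groups did not overlap, but library 2 was much lower than the other NCAM-enriched libraries. The means were 891 ± 637 and 57.1 ± 16.7 CPM (SD, n = 3). Its log2 fold change was 3.96 ± 0.73 (SE; edgeR adjusted p = 0.03133). It was called in 11 of 16 alternative fits. Among the fits without the call were those that left out NCAM-enriched library 1 or any 1 of the bulk skin libraries (highest adjusted p = 0.238).

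Klk5, the trypsin-like kallikrein that can activate the others, followed Klk7 in only part of the libraries. It had 910, 2 and 1993 counts in NCAM-enriched libraries 1, 2 and 3 and 45, 42 and 104 in bulk skin, or 484, 1.55 and 566 CPM against 14.0, 9.08 and 28.5 CPM. Libraries 1 and 3 were above all bulk skin libraries and library 2 below them, so the groups overlapped. The log2 fold change was 4.35 ± 1.39 (edgeR adjusted p = 0.127). DESeq2 called it higher (adjusted p = 0.00436). So did edgeR on all genes of at least 1 count (4.31 ± 0.57, adjusted p = 9.74e-12). There the fold was nearly unchanged and the SE smaller, and 769 genes were called higher and 741 lower, against 137 and 204 in the main fit. Klk5 was also called by edgeR without NCAM-enriched library 2 (log2 fold change 4.92 ± 0.51, adjusted p = 0.00174). That fit drops the library that disagreed, and it called 444 genes higher and 592 lower.

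Klk5 and Klk7 lie 1 gene apart on chromosome 7, both on the plus strand, with Klk6 between them. Klk7 runs from 43811294 to 43816359 and Klk5 from 43841971 to 43851181 (GRCm38). Since both were high in the same NCAM-enriched libraries, the bases before their RefSeq starts (GRCm38.p6, plus strand) are shown. For Klk7 these are the 250 bases of chr7:43811044-43811293. For Klk5 they are the 201 bases of chr7:43842068-43842268, without those that GENCODE places in an exon of a longer Klk5 transcript.
Klk7: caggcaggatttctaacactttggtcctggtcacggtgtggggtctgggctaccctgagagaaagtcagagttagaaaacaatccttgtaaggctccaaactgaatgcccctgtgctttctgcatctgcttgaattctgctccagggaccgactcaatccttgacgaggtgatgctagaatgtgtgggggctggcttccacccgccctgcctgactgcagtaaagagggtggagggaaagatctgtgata
Klk5: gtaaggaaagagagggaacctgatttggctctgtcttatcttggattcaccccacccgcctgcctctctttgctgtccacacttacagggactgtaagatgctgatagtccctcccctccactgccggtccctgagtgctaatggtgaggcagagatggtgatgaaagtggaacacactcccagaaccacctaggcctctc
Motifs were searched on both strands in the 250 bases before each RefSeq start. The motifs were TGANTCA (AP-1 and near-AP-1 letters, in 6.87% of 27025 promoters), AACCGGTT (grainyhead-like, 0.122%), TTGCNNAA (C/EBP, 9.55%) and TATAAA (13.0%). Neither promoter held any of them, which is why no letters are in capitals.

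The other tissue kallikreins did not share the pattern of Klk5 and Klk7. Klk11, a trypsin-like kallikrein, had 107, 49 and 206 counts in the NCAM-enriched libraries and 102, 113 and 41 in bulk skin, or 56.9, 37.9 and 58.5 CPM against 31.7, 24.4 and 11.2 CPM. The groups did not overlap and the levels of the NCAM-enriched libraries were close together, but the log2 fold change of 1.19 ± 0.61 was not called (adjusted p = 0.343).

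Klk8, or neuropsin, had 117, 0 and 21.0 CPM in NCAM-enriched libraries 1, 2 and 3 and 55.3, 35.7 and 31.5 CPM in bulk skin. The groups overlapped, with a log2 fold change of 0.17 ± 1.25 (adjusted p = 0.962). Of its exonic bases 24.8% overlap the gene 2310002F09Rik, and the reads of the pair cannot be told apart without strand. Klk10, a kallikrein with little known activity, went the other way, with 23.4, 0 and 24.4 CPM against 0.62, 106 and 114 CPM, and a log2 fold change of -2.18 ± 1.53 (adjusted p = 0.501). It was low in bulk skin library 1, so the groups overlapped here too.

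Klk6 had 80, 0 and 14 counts in NCAM-enriched libraries 1, 2 and 3, and 64 counts in bulk skin library 3 alone, so that each group had libraries without it. Klk9, Klk12 and Klk13 reached at most 17.5 CPM, in NCAM-enriched library 1 for Klk13. Klk1, Klk4, Klk14 and Klk15 had no count. The Klk1b genes, a rodent expansion known from salivary gland, were at 0 in all libraries but NCAM-enriched library 2, where Klk1b27 and Klk1b3 had 1 count each.

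NCAM-enriched library 2, the library with the fewest counts and genes, therefore kept Klk7 and Klk11 but held 0 to 2 counts of Klk5, Klk6, Klk8 and Klk10. The class as a whole summed to 2165, 225 and 1737 CPM in NCAM-enriched libraries 1, 2 and 3 and to 143, 246 and 270 CPM in bulk skin. Klk5 and Klk7 made up 88.0%, 83.2% and 93.8% of that sum in the NCAM-enriched libraries and 36.3%, 31.4% and 34.8% in bulk skin. The share of the pair was higher in every NCAM-enriched library than in any bulk skin library. In NCAM-enriched library 2 it came from Klk7 (185 CPM), with Klk5 at 1.55 CPM, and the class sum lay within the bulk skin range.

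**Figure D2:**
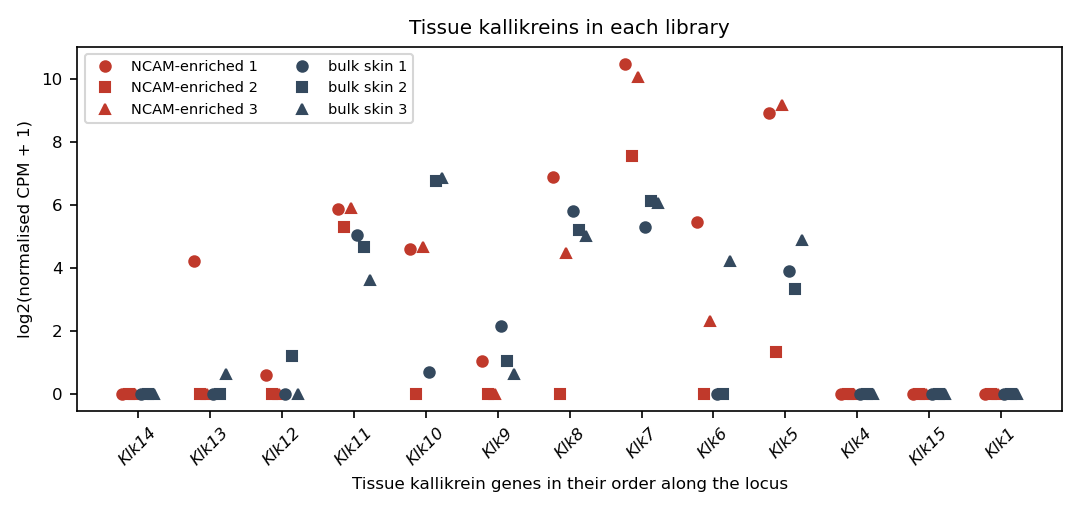
Level of each of the 13 tissue kallikreins in each library as log2(CPM + 1) on the y axis, with the genes in their order along the locus on the x axis, NCAM-enriched libraries in red and bulk skin libraries in dark blue. Klk7 is above bulk skin in all 3 NCAM-enriched libraries, Klk5 in libraries 1 and 3, and NCAM-enriched library 2 (red square) is at 0 for Klk6, Klk8 and Klk10.

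To set the inhibitor beside its proteases, levels were divided by exonic length. The Spink5 level per kb was 0.388, 2.31 and 0.287 times the summed Klk5 and Klk7 level per kb in NCAM-enriched libraries 1, 2 and 3. In bulk skin this ratio was 0.190, 0.262 and 0.223. Every NCAM-enriched library was above every bulk skin library, and library 2 was the highest. Klk7 had 751, 97.9 and 562 CPM per kb in NCAM-enriched libraries 1, 2 and 3, and Klk5 had 362, 1.16 and 423. Spink5 had 432, 228 and 282 CPM per kb there, so both proteases were lower in library 2, Klk7 included. Among all members by mean CPM per kb, Spink5 was 4th in the NCAM-enriched libraries (314) and 23rd in bulk skin (9.80), with Klk7 3rd (470) and Klk5 5th (262) in the NCAM-enriched libraries.

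Serpina12 encodes vaspin, a serpin known to inhibit KLK7, and was looked at after its values had been seen. It had 481, 0 and 550 counts in NCAM-enriched libraries 1, 2 and 3 and 2, 13 and 9 in bulk skin, or 256, 0 and 156 CPM against 0.62, 2.81 and 2.47 CPM. The pattern over the libraries was that of Klk5, with a high level in libraries 1 and 3 and none in library 2. It did not pass the count filter. Without NCAM-enriched library 2 it was tested and called higher (log2 fold change 6.63 ± 0.59, edgeR adjusted p = 0.001), as it was on all genes of at least 1 count (6.01 ± 0.77, adjusted p = 1.43e-12). The first of these fits drops the library that disagreed. Both called more genes than the main fit did, as given for Klk5.

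Spink5, Klk7 and Serpina12 had the same order over the NCAM-enriched libraries as the suprabasal keratinocyte markers, which were also higher there. NCAM-enriched libraries 1, 2 and 3 held 36392, 14072 and 18790 CPM of those markers, against at most 1654 CPM in bulk skin, and library 1 was the highest for these 3 members and the markers alike. Klk5 was highest in library 3 (566 against 484 CPM in library 1). Cst3 was also highest in library 3 (1128 against 701 CPM) and was lower than in bulk skin. The part of these cells in the levels of Spink5, Klk7, Klk5 and Serpina12 was not tested. Proteins that the cascade cuts were taken from a list of cleaved targets and receptors, which also holds transglutaminases and shares Flg and Lor with the suprabasal markers. Of its 12 tested genes, edgeR called 3 higher and 0 lower (against 1.04% and 1.55% of all genes). At an unadjusted p under 0.05 there were 7 higher and 0 lower (against 8.73% and 10.2%). The median log2 fold change was 3.86.

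Flg, the precursor of filaggrin, had 219, 16 and 217 counts in the NCAM-enriched libraries and 0 in bulk skin, which is at least 258-fold higher against 3 counts over the group (edgeR adjusted p = 0.0253). The bound was 154-fold without bulk skin library 2. Dsc1, a desmosomal cadherin cut during shedding, was higher by 4.00 ± 0.77 on the log2 scale (adjusted p = 0.0362). Cdsn, the corneodesmosin that KLK5 and KLK7 cleave, had 1275, 129 and 1040 CPM in NCAM-enriched libraries 1, 2 and 3 against 0, 45.4 and 38.9 CPM. Its groups did not overlap, and library 2 was again the lowest of its group, but the gene was not called (log2 fold change 4.85 ± 1.44, adjusted p = 0.102). The third called gene of this list was Flg2, a filaggrin relative (7.52 ± 1.62, adjusted p = 0.0496).

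Among 19 tested epidermal proteases outside the kallikreins, 2 were called higher and 1 lower (against 1.04% and 1.55% of all genes). Tmprss4, a membrane-anchored serine protease, had 155, 44.0 and 125 CPM in NCAM-enriched libraries 1, 2 and 3 against 12.7, 11.7 and 10.1 CPM (3.22 ± 0.59, adjusted p = 0.0304). Asprv1, the aspartic protease that processes filaggrin, was higher by 3.22 ± 0.64 (adjusted p = 0.0387). Mmp9, a gelatinase of leukocytes and activated keratinocytes, had no count in the NCAM-enriched libraries and 626 in bulk skin (adjusted p = 0.0178). It was thus at least 122-fold lower, with a bound of 57.7-fold when NCAM-enriched library 3 was left out. Ctsb, cathepsin B and the most abundant of the list by the sum of both group means, though below Ctsd in the NCAM-enriched libraries, was not called (-0.84 ± 0.49, adjusted p = 0.406).

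Cystatins were the most abundant inhibitors by the mean of each group, but not in NCAM-enriched library 2, where they summed to 579 CPM against 1154 CPM for the serpins of clades C to I and 1093 CPM for Kazal inhibitors. Cst3 and Cst6 together held 56.9%, 14.8% and 56.5% of the summed CPM of all members in NCAM-enriched libraries 1, 2 and 3, and 63.9%, 62.9% and 73.3% in bulk skin. Per kb of exon Cst3 came first and Cst6 second in bulk skin (2455 and 558 CPM per kb), and Cst6 first and Cst3 second in the NCAM-enriched libraries (1020 and 580 CPM per kb). The order of the pair was thus reversed between the groups by their means, and NCAM-enriched library 2 alone of its group kept the bulk skin order. The order per kb depends on the exonic lengths of 4.09 kb for Cst6 and 1.27 kb for Cst3. In CPM, bulk skin library 2 had Cst6 above Cst3 (2560 against 2113).

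Cst6 encodes cystatin E/M, the inhibitor of legumain and cathepsins in the cornifying epidermis. It had 13910, 259 and 17356 counts in NCAM-enriched libraries 1, 2 and 3 and 3894, 11841 and 11213 in bulk skin, or 7391, 200 and 4925 CPM against 1209, 2560 and 3074 CPM. Libraries 1 and 3 were above bulk skin and library 2 below it, as for Klk5. The means were 4172 ± 3654 and 2281 ± 963 CPM (SD, n = 3) and did not differ beyond the spread (0.87 ± 0.99, adjusted p = 0.704).

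Cst3 encodes cystatin C, a secreted inhibitor made by most cells and abundant in myeloid cells. It had 701, 372 and 1128 CPM in the NCAM-enriched libraries and 3746, 2113 and 3467 CPM in bulk skin, from 482 counts in the lowest library. The groups did not overlap. The log2 fold change was -2.08 ± 0.54 and missed the threshold in edgeR (adjusted p = 0.0744), while DESeq2 called it lower (adjusted p = 0.00101). So did edgeR without NCAM-enriched library 3, the nearest to bulk skin (-2.59 ± 0.55, adjusted p = 0.0365). That fit called 1099 genes higher and 733 lower, against 137 and 204 in the main fit.

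The stefins were low in both groups. Stfa1, a stefin known from neutrophils and their precursors, had 0 counts in the NCAM-enriched libraries and 24, 17 and 18 in bulk skin, which is at least 11.5-fold lower (edgeR adjusted p = 0.0876; limma-voom adjusted p = 0.0408). The bound was 5.43-fold when NCAM-enriched library 3 was left out. Of its 50-base stretches 22.5% occur in other genes, mainly BC100530. Csta1, the stefin A gene, had 4.78, 6.18 and 17.9 CPM in the NCAM-enriched libraries against at most 1.24 CPM (3.49 ± 1.22, edgeR adjusted p = 0.159; DESeq2 adjusted p = 0.0398). The stefins named here thus lay on opposite sides of 0. Stfa3 had 38 counts in NCAM-enriched library 3, none in the other NCAM-enriched libraries and 19 to 36 in bulk skin, and Stfa2 had 1 count in all.

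Markers of immune cells were lower in the NCAM-enriched libraries, where Cst3 and Stfa1 had lower levels without being called by edgeR. The 5 Langerhans and myeloid markers were all called lower, with sums of 86.6, 41.7 and 221 CPM in the NCAM-enriched libraries against 8209 to 14022 CPM in bulk skin. Their part in the levels of Cst3 and Stfa1 was not tested. A list of granule proteins of cytotoxic, neutrophil and mast cells, most of them proteases, had 6 tested genes. Of these edgeR called 0 higher and 2 lower (against 1.04% and 1.55% of all genes). Gzmc, a granzyme, had 0 against 2479 counts, which put it at least 482-fold lower (edgeR adjusted p = 0.0140; bound of 228-fold when NCAM-enriched library 3 was left out). Prf1, the perforin that lets granzymes into cells, had 0 against 680 counts, which put it at least 132-fold lower (edgeR adjusted p = 0.0196; bound of 62.6-fold when NCAM-enriched library 3 was left out).

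SLPI, the secretory leukocyte protease inhibitor, was split among the NCAM-enriched libraries. Slpi had 255, 0 and 1 counts in libraries 1, 2 and 3 and 652, 781 and 487 in bulk skin, or 135, 0 and 0.28 CPM against 202, 169 and 134 CPM. Library 1 reached the lowest bulk skin library and the others had next to nothing. Slpi was not called (-1.89 ± 1.56, adjusted p = 0.582), and without NCAM-enriched library 1, which leaves 1 count in that group, it was called lower (adjusted p = 0.00758).

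The 4 mast cell markers, all mast cell proteases, were also high in library 1 alone of the NCAM-enriched libraries. They summed to 1924, 3.09 and 0 CPM in NCAM-enriched libraries 1, 2 and 3 and to 423, 2031 and 1747 CPM in bulk skin libraries 1, 2 and 3. Slpi, with 202, 169 and 134 CPM in the same bulk skin libraries, was highest where these markers were lowest. Cpa3, the mast cell carboxypeptidase, had 1257, 0 and 0 counts in the NCAM-enriched libraries and was not called (adjusted p = 0.781). The part of mast cells in the level of Slpi was not tested. Wfdc5, the other WAP member with counts, had 66.4, 0 and 22.1 CPM in NCAM-enriched libraries 1, 2 and 3 against 2.17, 0 and 10.97 CPM (2.75 ± 1.85, adjusted p = 0.482), and Wfdc12 had no count.

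Of 13 tested inhibitors outside the set, edgeR called 0 in either direction, with 2 higher and 3 lower at an unadjusted p under 0.05 (against 8.73% and 10.2% of all genes). By DESeq2, 1 was higher and 3 were lower (against 5.02% and 7.05% of all genes), and by limma-voom 2 were lower (against 6.45%). Wfdc18, a WAP protein, had 0 counts in the NCAM-enriched libraries and 23, 539 and 2163 in bulk skin, at least 529-fold lower and at least 160-fold without bulk skin library 3 (adjusted p = 0.0546). Wfdc3 had 8 counts against 525 (adjusted p = 0.0576). Spint2, the Kunitz inhibitor of membrane-anchored serine proteases and the most abundant of the list by the sum of both group means, though below Cstb and Timp2 in bulk skin, was at 570, 182 and 821 CPM in NCAM-enriched libraries 1, 2 and 3 against 283 to 317 CPM (0.83 ± 0.52, adjusted p = 0.446).

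**Figure D3:**
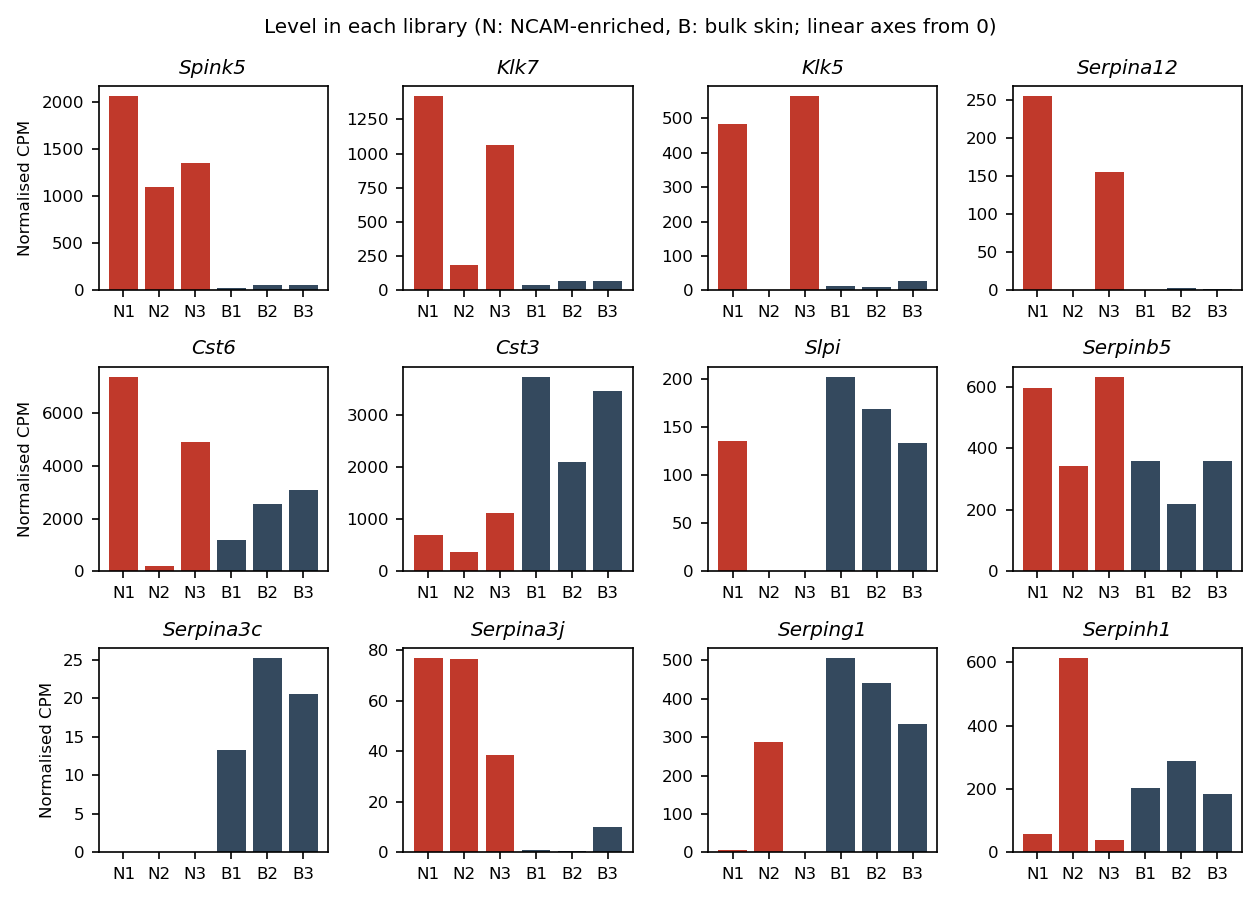
CPM in each library (N1 to N3, NCAM-enriched, red; B1 to B3, bulk skin, dark blue) for 12 members, on linear axes that start at 0 and differ between panels. Spink5 and Klk7 are higher in all 3 NCAM-enriched libraries, Klk5 and Serpina12 are at 1.55 and 0 CPM in N2, Cst6 is lower in N2 than in any other library, Slpi is present among NCAM-enriched libraries in N1, and Serping1 and Serpinh1 are highest among them in N2.

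The clade A serpins with counts were mostly Serpina3 genes, a mouse expansion of the antichymotrypsin gene on chromosome 12 whose copies are similar in sequence. The summed counts of this family did not differ between the groups. They came to 412, 385 and 759 counts in the NCAM-enriched libraries and 650, 1387 and 1075 in bulk skin, or 219, 297 and 215 CPM against 202, 300 and 295 CPM (-0.12 ± 0.35, adjusted p = 0.896). The copies differed in direction under this flat sum.

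Serpina3g, a serpin of leukocytes that inhibits cysteine cathepsins, was the most abundant copy in bulk skin with 114, 174 and 192 CPM, and had 0, 37.1 and 68.4 CPM in NCAM-enriched libraries 1, 2 and 3. The groups did not overlap, and the log2 fold change of -2.18 ± 1.13 was not called (adjusted p = 0.343). Serpina3c had no count in the NCAM-enriched libraries and 43, 117 and 75 in bulk skin. That is at least 45.7-fold lower, with a bound of 21.6-fold when NCAM-enriched library 3 was left out. It just missed the threshold in edgeR (adjusted p = 0.0511) and was called by DESeq2 (adjusted p = 4.40e-05).

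Serpina3j and Serpina3n were on the other side. Serpina3j had 145, 99 and 136 counts in the NCAM-enriched libraries and 3, 2 and 37 in bulk skin, or 77.0, 76.5 and 38.6 CPM against 0.93, 0.43 and 10.1 CPM. Its groups did not overlap (4.05 ± 1.16, edgeR adjusted p = 0.0923; DESeq2 adjusted p = 0.00264). Serpina3n, which inhibits granzyme B and cathepsin G, had 22.3, 138 and 0.57 CPM in NCAM-enriched libraries 1, 2 and 3 against 0.62 to 8.21 CPM. Its level rested on library 2 (3.93 ± 1.66, edgeR adjusted p = 0.243; DESeq2 adjusted p = 0.0463).

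Serpina3b had 53.1, 44.0 and 21.8 CPM against 22.0, 14.9 and 35.1 CPM (0.72 ± 0.66, adjusted p = 0.625). Serpina3h, annotated as a transcribed pseudogene, had 54.7, 2.32 and 79.5 CPM against 44.7, 52.1 and 27.4 CPM (0.15 ± 0.94, adjusted p = 0.957). These copies did not differ beyond the spread of the libraries. Of the 50-base stretches of Serpina3h 21.9% occur in other genes, mainly Serpina3i, and of those of Serpina3g 15.5%, mainly Serpina3h, so the counts of these copies are uncertain. The share was 4.25% for Serpina3c, 3.13% for Serpina3j and 6.90% for Serpina3n. Of the other clade A members, the 6 Serpina1 genes had 18 counts in all NCAM-enriched libraries together and none in bulk skin. Those were 14 counts of Serpina1f in library 2 and 4 of Serpina1d in library 1.

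**Figure D4:**
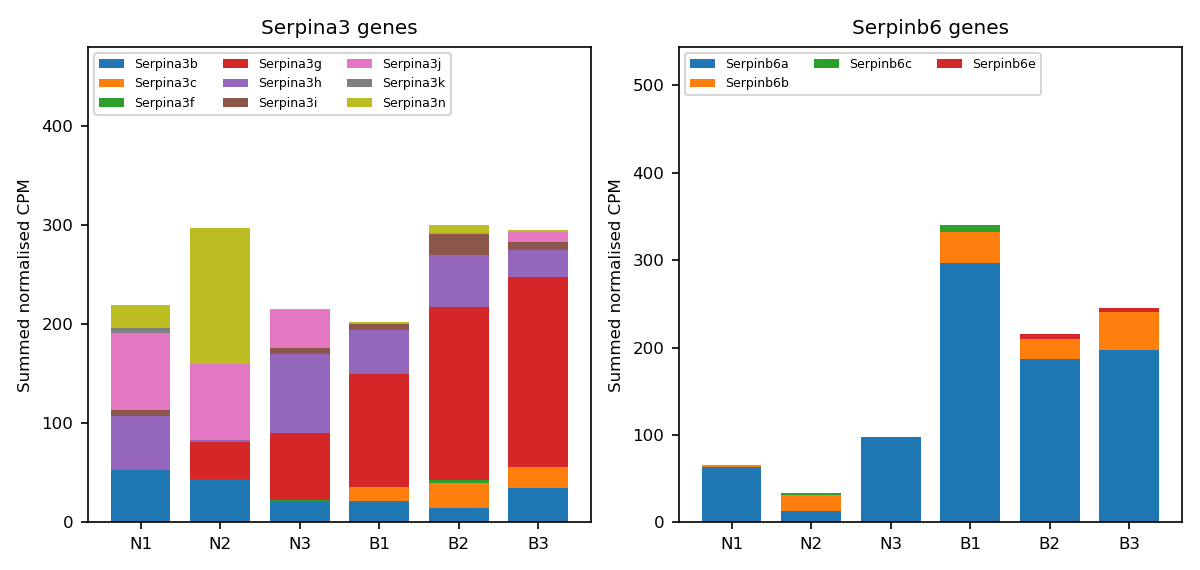
Summed CPM of the Serpina3 genes (left) and the Serpinb6 genes (right) in each library (N1 to N3, NCAM-enriched; B1 to B3, bulk skin), split by gene copy. The Serpina3 sums of the groups overlap, from 202 to 300 CPM, with Serpina3g the main copy in bulk skin and Serpina3j or Serpina3n large in N1 and N2, while all Serpinb6 sums of NCAM-enriched libraries are at most 98.2 CPM against at least 216 CPM in bulk skin.

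Clade B serpins lie in a cluster of 12 on chromosome 1 and a cluster of 15 on chromosome 13, and edgeR called 0 of the 11 tested, with 1 higher and 1 lower at an unadjusted p under 0.05 (against 8.73% and 10.2% of all genes). By DESeq2, 1 was higher and 1 lower (against 5.02% and 7.05%), and by limma-voom 0 (against 2.67% and 6.45%). Serpinb5, or maspin, a keratinocyte serpin without known protease target, was the most abundant. It had 1124, 445 and 2229 counts in the NCAM-enriched libraries and 1160, 1015 and 1308 in bulk skin, or 597, 344 and 632 CPM against 360, 219 and 359 CPM. The ranges overlapped by the lowest NCAM-enriched library alone. The means were 525 ± 157 and 313 ± 80.8 CPM (SD, n = 3; 0.75 ± 0.40, adjusted p = 0.360).

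Serpinb8, an inhibitor of furin, had 165, 63.4 and 111 CPM in NCAM-enriched libraries 1, 2 and 3 against 77.6, 78.5 and 49.1 CPM (0.73 ± 0.46, adjusted p = 0.456). Serpinb7, which is mutated in a hereditary palmoplantar keratosis, had 77.6, 0 and 54.8 CPM against 22.0, 16.6 and 20.6 CPM (1.16 ± 1.24, adjusted p = 0.680). It was above bulk skin in libraries 1 and 3 and without a count in library 2, as Serpina12 was. Serpinb3b, of the squamous cell carcinoma antigen family, had 85.5, 10.8 and 5.68 CPM against 0.31, 4.32 and 1.10 CPM, and its groups did not overlap (4.10 ± 1.42, edgeR adjusted p = 0.157; DESeq2 adjusted p = 0.0149). Its fold rested on library 1, without which it was 2.03 ± 1.44 (edgeR adjusted p = 0.471). Serpinb2, the plasminogen activator inhibitor 2, had 28.2, 23.2 and 150 CPM against 144, 70.0 and 78.7 CPM (-0.53 ± 0.73, adjusted p = 0.766).

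Serpinb10, annotated as a polymorphic pseudogene and known from bone marrow cells, had 0, 0 and 30 counts in NCAM-enriched libraries 1, 2 and 3 and 169, 62 and 103 in bulk skin. The groups did not overlap, and the gene was not called (-3.33 ± 1.54, adjusted p = 0.286) until NCAM-enriched library 3, which held all of those 30 counts, was left out (adjusted p = 0.0347). That fit called many more genes than the main fit, as given for Cst3. Of the exonic bases of Serpinb10 8.34% overlap Serpinb2.

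The chromosome 1 serpins shared a feature of their promoters that the naming rule did not use. Of 7 tested members in that cluster, 6 had the letters TGANTCA in the 250 bases before the RefSeq start (Serpinb2, Serpinb5, Serpinb7, Serpinb8, Serpinb10 and Serpinb11), as did 0 of the 23 other tested members with a promoter sequence and 6.87% of all promoters. The stricter AP-1 letters TGAGTCA were in 4.43% of all promoters and before Serpinb7 and Serpinb8. The 5 matches outside annotated exons are shown with 15 bases on each side (GRCm38.p6, chromosome 1, plus strand), to compare their surroundings, with the matched letters in capitals.
Serpinb5, chr1:106861020-106861056: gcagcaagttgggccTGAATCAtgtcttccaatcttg
Serpinb7, chr1:107422629-107422665: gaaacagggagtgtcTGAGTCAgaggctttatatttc
Serpinb2, chr1:107511314-107511350: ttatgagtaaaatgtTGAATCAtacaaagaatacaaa
Serpinb10, chr1:107528934-107528970: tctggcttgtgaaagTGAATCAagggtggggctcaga
Serpinb8, chr1:107589968-107590004: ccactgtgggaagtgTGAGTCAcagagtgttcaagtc
The matches began 140, 45, 94, 54 and 23 bases before the start. The log2 fold changes of these 5 genes lay on both sides of 0, from -3.33 for Serpinb10 to 1.16 for Serpinb7, and none was called, so the letters did not go with one direction.

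All 4 tested serpins of the chromosome 13 cluster had negative log2 fold changes, none of them called by edgeR in the main fit. Of all genes tested, 47.7% were above 0. Serpinb6a, an intracellular inhibitor of cathepsin G, had 120, 17 and 346 counts in NCAM-enriched libraries 1, 2 and 3 and 956, 864 and 719 in bulk skin, or 63.8, 13.1 and 98.2 CPM against 297, 187 and 197 CPM. Its groups did not overlap (-1.95 ± 0.64, edgeR adjusted p = 0.137; DESeq2 adjusted p = 0.0393). Of its exonic bases 29.3% overlap 1110046J04Rik, Nqo2 or Ripk1. With its copies, the Serpinb6 genes summed to 65.9, 33.2 and 98.2 CPM against 340, 216 and 245 CPM (-2.01 ± 0.47, edgeR adjusted p = 0.0610).

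Serpinb6b had 3, 24 and 0 counts in NCAM-enriched libraries 1, 2 and 3 against 107 to 161 in bulk skin (-2.40 ± 1.45, adjusted p = 0.430). It was called lower only when library 2, which held most of its NCAM-enriched counts, was left out (edgeR adjusted p = 0.0305). Serpinb1a, an inhibitor of neutrophil elastase, had 44.6, 14.7 and 3.12 CPM against 44.1, 99.4 and 94.6 CPM (-1.94 ± 0.87, adjusted p = 0.272). Serpinb9, the inhibitor of granzyme B, had 3, 0 and 23 counts against 64, 48 and 36 (-2.21 ± 1.34, adjusted p = 0.431). The T and NK cell markers, with 5 of 5 tested genes lower, went the same way, and their part in these levels was not tested.

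The serpins of clades C to I with most counts were Serping1, the C1 inhibitor, Serpinf1, the anti-angiogenic factor PEDF, Serpinh1, the collagen chaperone HSP47, and Serpine2, the thrombin inhibitor nexin-1. Of the 5 tested, edgeR called 0, with 0 at an unadjusted p under 0.05 (against 8.73% of all genes higher and 10.2% lower). DESeq2 called 0 (against 5.02% and 7.05%) but gave no adjusted p for Serpinh1, while limma-voom called Serping1 lower (against 6.45%). The class summed to 138, 1154 and 45.4 CPM in NCAM-enriched libraries 1, 2 and 3 and to 1107, 1224 and 697 CPM in bulk skin. Library 2 reached the level of bulk skin and the others were far below it.

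Serping1 had 13, 373 and 5 counts in NCAM-enriched libraries 1, 2 and 3 and 1632, 2035 and 1223 in bulk skin, or 6.91, 288 and 1.42 CPM against 507, 440 and 335 CPM. The groups did not overlap (-2.13 ± 1.40, adjusted p = 0.473). Without library 2, which lay nearest to bulk skin, the gene was called lower (-6.82 ± 0.70, edgeR adjusted p = 0.00174). That fit drops the library that disagreed. Serpinf1 had 17.0, 197 and 0 CPM against 319, 386 and 102 CPM (-1.93 ± 1.46, adjusted p = 0.539).

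Serpinh1, which folds procollagen, had 108, 796 and 136 counts in NCAM-enriched libraries 1, 2 and 3 and 655, 1331 and 673 in bulk skin, or 57.4, 615 and 38.6 CPM against 203, 288 and 185 CPM. Library 2 was above all bulk skin libraries and libraries 1 and 3 below them. The fitted difference over all libraries was therefore near 0 (0.07 ± 0.91, adjusted p = 0.980). It was negative and called without library 2 (-2.25 ± 0.40, adjusted p = 0.0133).

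Collagen genes, like these serpins, were highest in library 2 among the NCAM-enriched libraries. Among the fibroblast markers, Col1a1 had 121, 11884 and 11.1 CPM in NCAM-enriched libraries 1, 2 and 3 and 2597 to 5908 CPM in bulk skin. Lum, another defining fibroblast gene, had 0, 44.8 and 0 CPM against 240 to 344 CPM. Dcn had 25.0, 774 and 5.39 CPM against 1925 to 2113 CPM. In library 2, Col1a1 and Col1a2 (15390 CPM) made up most of the fibroblast marker sum. There the 2 collagen genes and Serpinh1 were above all bulk skin libraries, and Dcn, Lum and Serping1 below them. The part of fibroblasts in the levels of Serping1, Serpinf1 and Serpinh1 was not tested. Serpine2 did not share the pattern, with 43.0, 3.86 and 0.28 CPM in NCAM-enriched libraries 1, 2 and 3 against 57.3 to 99.4 CPM (-2.28 ± 1.24, adjusted p = 0.372). Serpinc1, the antithrombin of plasma, had 9, 36 and 10 counts in NCAM-enriched libraries 1, 2 and 3 and 0, 3 and 0 in bulk skin, a ratio of 31.5 (95% counting interval 10.2 to 157), and did not pass the count filter. Of its exonic bases 34.4% overlap Zbtb37.

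**Figure D5:**
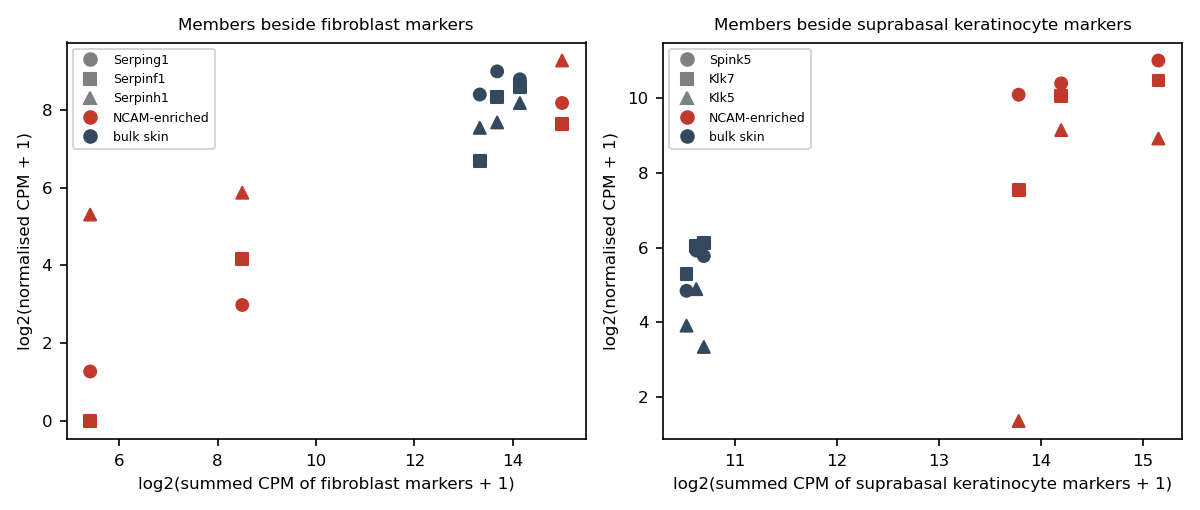
Level of 3 serpins beside the summed fibroblast markers (left), and of Spink5, Klk7 and Klk5 beside the summed suprabasal keratinocyte markers (right), in each of the 6 libraries, both axes as log2(CPM + 1), NCAM-enriched libraries in red and bulk skin in dark blue. On the left, the NCAM-enriched library with 32932 CPM of fibroblast markers has Serping1 at 288 and Serpinf1 at 197 CPM and Serpinh1, at 615 CPM, above bulk skin, and on the right all NCAM-enriched libraries have more marker CPM than bulk skin, with Klk5 at 1.55 CPM in the one with the least.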

How the data were processed

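The deposited values are raw counts per gene, with no normalization. The authors obtained them with featureCounts from 50-base single-end reads that STAR had placed on GRCm38, after trimming and a filter against abundant sequences. The sources used here give neither the annotation release nor the strand setting, and Smart-seq2 does not mark strand. Groups came from the labels. Neither labels nor methods state that replicates came from separate animals, so p-values measure only the spread between these libraries.

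Genes were filtered with filterByExpr and compared with edgeR 4.0.16 in R 4.3.3 (TMM factors, quasi-likelihood F-test). P-values were adjusted by Benjamini-Hochberg over 13157 genes and called at 0.05. The SE was derived from the test, as the size of the log2 fold change over the square root of F. CPM are counts over the tested-gene total of the library times its TMM factor. Libraries held 1343190 to 4481830 counts before the filter, which sets the precision of low values. Folds against a group without counts are bounds set by 3 counts over that group, which cover counting error only. The test was checked on simulated counts. Positions, exonic lengths, overlaps and shared 50-base stretches came from GENCODE M21, in which all 111 members were found, and promoters from RefSeq (GRCm38.p6), which held 87 of them.

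Members and lists were chosen with earlier results of these data known. Named were called members, tested members with a group mean of at least 20 CPM, the highest member of each class, members with 0 counts in one group and at least 50 in the other, and, of each list, the 2 genes with the smallest p and the most abundant. Others were named after their values were seen: Serpina12, Csta1, Stfa2, Stfa3, Klk1b3, Klk1, Klk4, Klk6, Klk9, Klk12 to Klk15, Spink2, Spink8, Spink10, Wfdc12, Serpinb9, Serpinb11, Serpinc1, Serpina3i, the Serpina1 genes, Flg2, Asprv1, Ctsd, Cstb, Timp2, Lor, Col1a1, Col1a2, Dcn, Lum, Krt17, Krt79 and Lgr6. Alternatives were DESeq2 1.42.0, limma-voom (limma 3.58.1), RLE or upper-quartile factors or library totals, other count filters, robust dispersion, near-identical copies summed, a block for the replicate number and leaving out each library. Figures were drawn with matplotlib 3.10.9.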

Additional observations from a re-analysis of the deposited data

How the results depend on the processing

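Members called higher numbered 2, and 7 on all genes of at least 1 count, 7 with DESeq2 and 0 to 4 when 1 library was left out. Members called lower numbered 0, and 1 with library totals alone, 9 on all genes of at least 1 count, 3 with DESeq2, 5 with limma-voom and 0 to 4 when 1 library was left out. Genes called in the 4 lists of other proteases, inhibitors and targets numbered 8, and 23 on all genes, 19 with DESeq2 and 0 to 20 when 1 library was left out. Without bulk skin library 1, 2 or 3, edgeR called 0, 0 and 1 genes higher among all tested, with 2115, 2237 and 2178 at an unadjusted p under 0.05 in both directions, and 0 members. Direction turned for Serpina3h with limma-voom (-0.13) and over the left-out libraries (-0.57 to 0.68), for Serpinb7 (-0.12) and Cst6 (-0.080) with limma-voom, for Klk8 with limma-voom (-1.69) and over the left-out libraries (-1.89 to 0.73), and for Serpinh1 with upper-quartile factors (-0.074), on all genes (-0.13), with limma-voom (-1.37) and over the left-out libraries (-2.25 to 0.50). Over all genes the median log2 fold change was -0.37 with limma-voom, against -0.07. The causes were not tested. Of 661 fits of 42 single genes, 564 kept direction and side of the threshold, 48 passed it newly, 32 lost it and 17 turned.

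The groups share replicate numbers, but deviations from the group means correlated at only 0.0231, 0.000232 and -0.00776 for numbers 1, 2 and 3, so the numbers were not taken as pairs. With the replicate block 1 member was called higher (Spink5, while Klk7 had an adjusted p of 0.0867), 0 lower and 4 list genes, and the log2 fold change turned for Serpina3h (-0.42), Serpinh1 (-1.07) and Klk8 (-1.15), with a median over all genes of -0.36.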
